A study of Mus musculus with 4 samples.

Results

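Cathepsins are the proteases of the lysosome, the acid compartment where cells break down proteins. Most are made as inactive precursors, tagged with mannose 6-phosphate, sorted to the lysosome and activated there by cleavage, and part of the pool can be secreted. In tumors, secreted cathepsins are known for cutting the matrix around the cells, and cystatin C (Cst3) is a secreted inhibitor of the cysteine cathepsins. The 9 genes described here were Ctsa, Ctsb, Ctsd, Ctsk, Ctsl, Ctss, Ctsz, Lgmn and Cst3, out of 21090 genes in the table. They were listed by name, but with earlier results of these data known. The list holds cysteine cathepsins (Ctsb, Ctsk, Ctsl, Ctss, Ctsz), an aspartic protease (Ctsd), a serine carboxypeptidase (Ctsa), the asparaginyl endopeptidase legumain (Lgmn) and the inhibitor cystatin C, so not every member is a protease.

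Bulk RNA-seq profiled 4 mouse mammary tumor cell lines, with 1 library per line. By the paper's account, all 4 carried Pik3ca H1047R and Trp53 R270H, both switched on by Cre recombinase under the MMTV promoter. By that account they traced back to a primary mammary tumor, a sarcomatoid adenocarcinoma, of a C57BL/6 mouse with lung metastasis. The control group (n = 2) was the parental line and a vector control line, and the knockout group (n = 2) was 2 lines edited in S100a4, in exon 3 (exon3 KO) and in exon 2 (exon2 KO). Edited lines had received a lentivirus with Cas9 and a guide RNA and were selected on puromycin, and the comparison asks how loss of S100a4, a small calcium-binding protein tied to metastasis, alters expression. By their titles 3 libraries came from cells named 307, and exon2 KO from cells named 308. What these names stand for is not given, and the paper describes 1 starting line. Each line is a single culture as far as the labels say, so the p-values below measure the spread between lines. Editing, selection, drift of a line and, for exon2 KO, a possibly different starting line cannot be told apart.

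Levels are given as RPKM, that is reads per kilobase of a gene and relative to the read total of a library, so genes can be set side by side per length. The libraries held between 14615855 and 20391021 reads in genes. S100a4 itself was 3576 RPKM in parental cells, 4741 in vector control cells, 1136 in exon3 KO cells and 1105 in exon2 KO cells, lower in both knockouts (log2 change -1.88, SE 0.311, limma adjusted p = 0.0731, above the threshold of 0.05). Averaged over the libraries, 6 of the 9 genes reached 1 RPKM and were tested, while 3 (Ctss, Ctsk and Ctsz) stayed below it. Checked against the label of mammary tumor line, the defining epithelial markers were nearly absent: Epcam (0.304 to 0.657 RPKM) and Cdh1 (0.117 to 0.252 RPKM) were close to 0. Krt8 was between 27.5 and 78.9 RPKM, and the mesenchymal gene Vim was between 1362 and 2418. The paper describes cells from sarcomatoid tumors as spindle-shaped. It reports lower Epcam and Krt18 in its metastatic sarcomatoid tumors than in adenocarcinomas.

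Cystatin C, the inhibitor, was the most abundant of the 9 in every library. Cst3 was 2794 RPKM in parental cells, 1145 in vector control cells, 3514 in exon3 KO cells and 3389 in exon2 KO cells, which placed it 6th, 29th, 9th and 7th among all genes of those libraries. Both knockouts were above both controls, and the vector control stood apart at the bottom. Ctsd, the main aspartic protease of the lysosome, was 939 RPKM in parental cells, 521 in vector control cells, 1179 in exon3 KO cells and 1675 in exon2 KO cells. Again the knockouts did not overlap the controls.

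Ctsb and Ctsl, the broadly expressed cysteine cathepsins, came next. Ctsb was 758 RPKM in parental cells, 669 in vector control cells, 894 in exon3 KO cells and 916 in exon2 KO cells, so the groups did not overlap although all 4 values were close. Ctsl was 806 RPKM in parental cells, 519 in vector control cells, 553 in exon3 KO cells and 804 in exon2 KO cells. Here the groups overlapped, with 1 library of each group high and 1 low.

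Ctsa, the carboxypeptidase that also protects the lysosomal enzymes beta-galactosidase and neuraminidase, was 214 RPKM in parental cells, 176 in vector control cells, 293 in exon3 KO cells and 415 in exon2 KO cells. Both knockouts were above both controls. Lgmn, which cleaves after asparagine and processes other cathepsins, was 226 RPKM in parental cells, 133 in vector control cells, 246 in exon3 KO cells and 188 in exon2 KO cells, and its groups overlapped.

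The remaining 3 genes were barely detected. Ctss, best known from antigen-presenting cells, was 0.404 RPKM in parental cells (13 reads), 0.383 in vector control cells (10 reads), 0.869 in exon3 KO cells (21 reads) and 0.908 in exon2 KO cells (21 reads). Pooled over each group, the ratio of knockouts to controls was 2.25 (95% interval 1.32 to 3.92, 42 against 23 reads), an interval that covers counting error only, at a level near the floor of these libraries. Ctsk, the collagen-degrading cathepsin of osteoclasts, had 7 reads in parental cells, 9 in vector control cells and 3 in each knockout, and the ratio of knockouts to controls was 0.462 (95% interval 0.148 to 1.24). That interval includes equal levels in both groups. Ctsz, an exopeptidase, had 4 reads in parental cells, 2 in vector control cells, 3 in exon3 KO cells and 1 in exon2 KO cells, too few for a ratio.

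**Figure D1:**
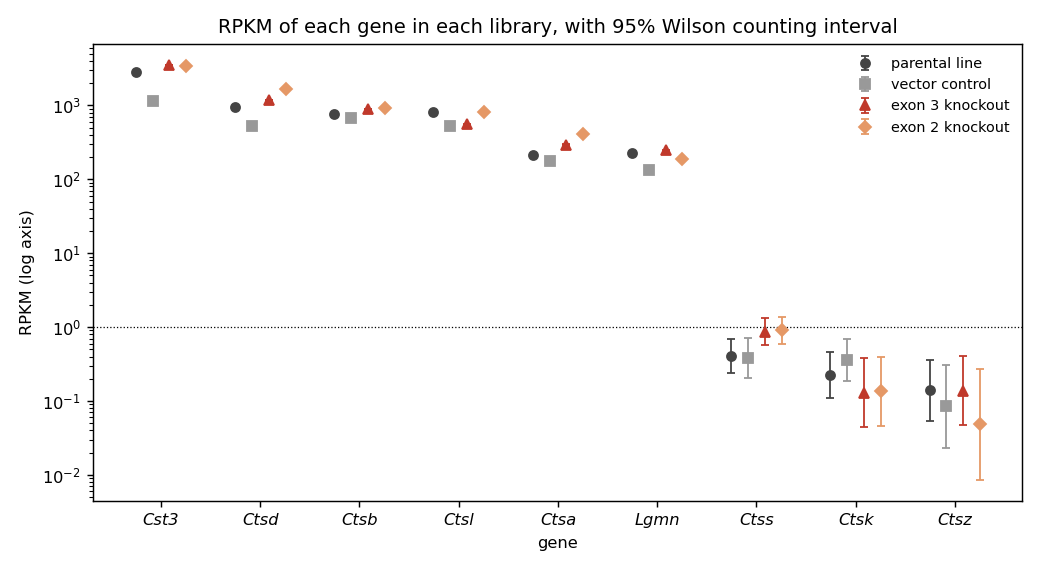
RPKM (log axis) of the 9 genes in each of the 4 libraries, with 95% Wilson intervals for counting error, which are smaller than the symbols for the 6 abundant genes. Cst3 is the highest in each library, Ctss, Ctsk and Ctsz lie under the dotted line at 1 RPKM, and the vector control (grey squares) is the lowest of the 4 libraries for all 6 abundant genes.

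Over the 4 libraries the mean level was 2711 ± 1090 RPKM (SD, n = 4) for Cst3, 1079 ± 482 for Ctsd, 809 ± 117 for Ctsb, 671 ± 156 for Ctsl, 274 ± 106 for Ctsa and 198 ± 49.8 for Lgmn. In this order of levels only some steps held in every library. Cst3 was above the other 5, and Ctsd, Ctsb and Ctsl were above Ctsa and Lgmn, in 4 of 4 libraries. Ctsd was also above Ctsl in 4 of 4, though nearly level with it in the vector control. Ctsb changed places with Ctsd and with Ctsl between libraries, as Ctsa did with Lgmn, and these steps were not tested. The share of all RPKM held by the 9 genes together was 1.20% in parental cells, 0.591% in vector control cells, 1.17% in exon3 KO and 1.37% in exon2 KO cells. Set against the cysteine cathepsins it can inhibit, Cst3 was 1.79 times the sum of Ctsb and Ctsl in the parental line, 0.964 times in vector control cells, 2.43 times in exon3 KO and 1.97 times in exon2 KO cells. The ratio of Ctsd to Ctsl was 1.17 in parental cells and 1.004 in vector control cells, against 2.13 in exon3 KO and 2.08 in exon2 KO cells. To Ctsb it was 1.24, 0.779, 1.32 and 1.83 in the same order, with exon3 KO close to the parental line. Whether fewer cells of a type or less RNA per cell lies behind a lower value cannot be told apart in bulk samples.

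The knockout lines were then compared with the controls. By group, Ctsd was 730 ± 296 RPKM (SD, n = 2) in controls and 1427 ± 351 in knockouts, Cst3 was 1970 ± 1166 and 3451 ± 88.3, and Ctsa was 195 ± 26.8 and 354 ± 85.9. On the log2(RPKM + 1) scale the change was 1.005 (SE 0.359, 95% interval 0.22 to 1.79) for Ctsd, 0.95 (SE 0.405, 0.06 to 1.83) for Cst3 and 0.84 (SE 0.310, 0.16 to 1.52) for Ctsa. None of the 3 passed the limma test after adjustment over 10871 genes, with adjusted p = 0.186 for Ctsd, 0.240 for Cst3 and 0.192 for Ctsa. Ctsb was 714 ± 63.3 RPKM in controls and 905 ± 15.6 in knockouts (log2 change 0.34, SE 0.293, adjusted p = 0.535), Lgmn 179 ± 66.0 and 217 ± 40.9 (0.31, SE 0.337, adjusted p = 0.633) and Ctsl 663 ± 203 and 678 ± 177 (0.04, SE 0.338, adjusted p = 0.961). The interval for Ctsl ran from -0.70 to 0.79, which leaves room for a change in either direction.

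Counts over the 6 tested genes, which were listed with earlier results known, were set beside those over the whole table. By limma with Benjamini-Hochberg adjustment, 0 of the 6 tested genes were called, where 0.0184% of all tested genes were, and voom on the recovered reads also called 0. At an unadjusted limma p under 0.05, 3 of the 6 (Ctsd, Ctsa and Cst3) were higher in the knockouts, where 5.32% of all tested genes were. Under other settings the count of members under 0.05, in either direction, was 0 under quantile normalization, 1 with no filter, 2 after correction for coding GC content and length, 4 without the parental line, 1 without the vector control, 2 without exon3 KO and 0 without exon2 KO cells. Both knockouts were above both controls for 4 of the 6 (Ctsa, Ctsb, Ctsd and Cst3), against 21.9% of all tested genes, and below both controls for 0 of the 6, against 31.2% of them. In the exact permutation test, two-sided over the 6 ways to divide the libraries, these 4 genes reached p = 0.333, the smallest this design allows. The median log2 change of the 6 was 0.59, and that of all tested genes was -0.08. It was 0.71 against 0.02 under median ratio scaling, 0.35 against 0.04 under quantile normalization and 0.37 against -0.08 after correction for GC content and length.

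The size of these differences depended on the libraries used, more on the controls for Cst3 and Ctsd and more on the knockouts for Ctsa. Leaving out exon3 KO gave log2 changes of 0.92 for Cst3, 1.26 for Ctsd and 1.09 for Ctsa. Leaving out exon2 KO gave 0.97 for Cst3, 0.75 for Ctsd and 0.60 for Ctsa. Without the parental line, the log2 change was 1.59 for Cst3 (adjusted p = 1.1e-04), 1.43 for Ctsd (adjusted p = 6.7e-04) and 0.98 for Ctsa (adjusted p = 0.0430), and all 3 passed the limma test, with the lone control assumed to vary like the knockouts. Without the vector control it was 0.30 for Cst3, 0.58 for Ctsd and 0.70 for Ctsa, and none passed. Coding GC content moved with the log2 change over genes (Pearson's r = 0.457 across genes, which are not independent replicates). Correction for coding GC content and length brought Cst3 from 0.95 to 0.46. Cst3 has a coding GC content of 57.7%, against a median of 53.0% over tested genes. Ctsd at 52.9% and Ctsa at 54.6% moved to 0.88 and 0.68. The number of members with both knockouts above both controls was 3 after this correction (17.1% of tested genes) and 2, Ctsa and Ctsd, after quantile normalization (27.7% of tested genes).

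**Figure D2:**
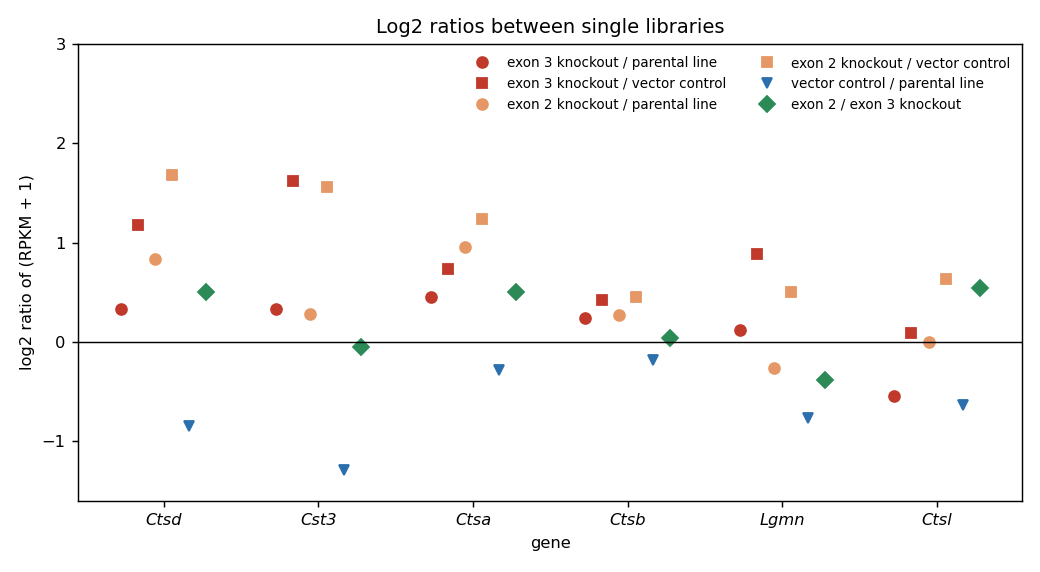
Log2 ratios of (RPKM + 1) between single libraries for the 6 abundant genes. All 4 knockout to control ratios are above 0 for Ctsd, Cst3, Ctsa and Ctsb, and the ratios of vector control to parental line (blue) are below 0 for every gene, reaching -1.29 for Cst3.

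The control lines differed from each other by more than the groups did for Cst3, Lgmn and Ctsl. The vector control was below the parental line for all 6, by log2 ratios of -1.29 for Cst3, -0.85 for Ctsd, -0.76 for Lgmn, -0.63 for Ctsl, -0.28 for Ctsa and -0.18 for Ctsb. With 1 library per line no test can be made, but counting error was small, with Cst3 between 2766 and 2823 RPKM in the parental line and between 1125 and 1166 in the vector control (95% Wilson intervals). Cst3 alone of the 6 was at least 2-fold lower in the vector control, as were 5.19% of all tested genes, and 8.53% were at least 2-fold apart in either direction. The vector control was the lowest of the 4 libraries for 6 of 6 genes, against 18.1% of all tested genes, and for 5 of 6 after quantile normalization, against 25.5%. Over all tested genes the median log2 ratio of vector control to parental line was 0.16, in the other direction. For Lgmn the parental line lay between the knockouts. For Ctsl it was level with the exon 2 knockout (806 against 804 RPKM) and well above the exon 3 knockout (553 RPKM).

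The knockout lines were compared in the same way. None of the 6 was 2-fold apart between the exon 2 and exon 3 knockouts, where 4.99% of all tested genes were. Ctsl, Ctsd and Ctsa were higher in the exon 2 knockout, by log2 ratios of 0.54, 0.51 and 0.50. Lgmn was lower in it, at -0.39, and Ctsb (0.04) and Cst3 (-0.05) were nearly level, though the Cst3 ratio was 0.22 after quantile normalization and 0.20 after the correction for GC content and length. Ctsd, Ctsa and Ctsb thus shared an order over the 4 libraries, from the vector control through the parental line and the exon 3 knockout to the exon 2 knockout, while Cst3 was highest in the exon 3 knockout.

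The genes lie on 6 chromosomes (GRCm38, GENCODE M21, all protein coding). Ctsk (chr3:95499256-95509362, plus strand) and Ctss (chr3:95526786-95556403, plus strand) are neighbours 17423 bases apart, and both were barely detected. They share a chromosome with the edited gene, S100a4 (chr3:90603771-90606045, plus strand), whose end is 4893210 bases before Ctsk. Chromosome 2 holds Cst3 (chr2:148871722-148875692, minus strand), Ctsa (chr2:164832873-164841032, plus strand) and Ctsz (chr2:174427493-174439039, minus strand), of which the first pair was abundant and Ctsz was not. The others are Ctsd (chr7:142375911-142388038, minus strand), Lgmn (chr12:102394084-102439813, minus strand), Ctsl (chr13:64359337-64370890, minus strand) and Ctsb (chr14:63122462-63145923, plus strand).

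Many lysosomal genes carry an E-box near their start that is bound by the transcription factor TFEB and its relatives. Since Ctsd, Ctsa and Ctsb shared an order over the libraries, the RefSeq promoter windows (GRCm38.p6, 250 bases before to 50 after a start site, 10 windows for 8 of the 9 genes, Ctsb not among them) were searched for CACGTG on both strands, which reads the same on each, and for its extension TCACGTG, which overlaps it and may lie on either strand. Windows of 4 of the 8 genes held CACGTG, against 8.09% of 27025 genes with a window, and 3 of them held the extension, against 4.29% of genes. Other sets of lysosomal genes were above the share for CACGTG too. It was held by 30.8% of proton pump genes, 27.3% of membrane protein genes, 25% of other peptidases and 21.4% of hydrolases and activators. The 30 bases around each upstream match read as follows from 5′ to 3′ on the strand of the gene, with the match in capitals (the extension on either side included).
Ctsa: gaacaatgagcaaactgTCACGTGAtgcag
Ctsd, nearer the start: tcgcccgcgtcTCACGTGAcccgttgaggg
Ctsd, farther from the start: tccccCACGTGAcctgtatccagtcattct
Lgmn: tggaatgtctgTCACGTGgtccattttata
Ctsl: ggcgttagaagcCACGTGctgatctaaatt

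Coordinates in this paragraph are those of the printed bases around each match, not of the match alone. The Ctsa match (chr2:164833743-164833772) lies 12 bases before an alternative start, in a non-coding exon of the gene. The Ctsd matches lie 98 bases (chr7:142387908-142387937, non-coding exon of another transcript) and 245 bases (chr7:142388048-142388077, outside the gene) before the start. The Lgmn match (chr12:102439124-102439153) is in an intron, 49 bases before an alternative start, and the Ctsl match (chr13:64370739-64370768) is 236 bases before the start in a non-coding exon. Ctsa and Ctsd were higher in both knockouts and Lgmn and Ctsl overlapped between groups. The windows of Cst3, Ctsk, Ctss and Ctsz held no match. A match describes the sequence and no binding was measured.

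Other genes of the lysosome were read from the same fit. By limma 0 were called in any of these lists. They held 8, 4, 12, 14, 15, 36 and 11 tested genes, in the order taken below. At an unadjusted limma p under 0.05, 6 were higher, all among the 36 sugar or lipid hydrolases and their activators. At the same p, 5 were lower (Ctso, Vps35, Atp6v1a, Fnip1 and Asah1). Taken over all these lists, the higher genes were near the 5.32% of all tested genes and the lower ones under the 13.8%. Genes named only as part of a count were chosen after their values were seen. Among 8 tested lysosomal peptidases outside the 9 members, the median log2 change was -0.02. Both knockouts were above both controls in 0 and below both in 1, beside 21.9% and 31.2% of all tested genes. That gene was Ctso, another cysteine cathepsin, at 13.6 RPKM in parental cells, 17.9 in vector control cells, 8.67 in exon3 KO cells and 6.92 in exon2 KO cells (log2 change -0.92, unadjusted p = 0.0166, adjusted p = 0.185). Ctsh, an aminopeptidase, was 120 RPKM in the parental line and between 58.8 and 64.2 in the other 3 libraries (log2 change -0.51). The carboxypeptidase Scpep1 ranged from 347 to 556 RPKM (log2 change 0.23), with overlapping groups. Cathepsins of the rodent placenta, 9 genes, were listed at 0 in all 4 libraries.

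Of 14 other inhibitors of cysteine proteases, 4 were tested and the other 10 were listed at 0 in all 4 libraries. Cystatin B (Cstb), the intracellular inhibitor, was 348 RPKM in parental cells, 469 in vector control cells, 693 in exon3 KO cells and 461 in exon2 KO cells (log2 change 0.48, adjusted p = 0.429, and 0.29 after the correction for GC content and length), so its lowest library was the parental line and not the vector control. Cst6, a secreted cystatin, was 87.5, 34.9, 55.8 and 172 RPKM in the same order of libraries (log2 change 0.81, adjusted p = 0.407, and 0.33 after the same correction). Ctla2a, related to the propeptide of cysteine cathepsins, was 177 RPKM in parental cells, 0.476 in vector control cells, 28.7 in exon3 KO cells and 11.2 in exon2 KO cells, a wider spread than any member showed (log2 change 0.23, SE 1.51, and 0.47 after it). In none of the 4 did the groups separate.

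Delivery of enzymes to the lysosome was covered by 12 tested genes, with a median log2 change of 0.03. Both knockouts were above both controls in 4 of them (Gnptg, Nagpa, Scarb2 and Gga1) and below in 2 (Gnptab and Vps35). Over all tested genes 21.9% were above and 31.2% below, shares to set beside each such count in this paragraph. Vps35, of the retromer that recycles sorting receptors, was lowest in the knockouts (log2 change -0.94, unadjusted p = 0.0149, adjusted p = 0.179), though after the correction for GC content and length its value was -0.28. Gnptg, a subunit of the enzyme that makes the mannose 6-phosphate tag, and Scarb2, a sorting receptor, had log2 changes of 0.67 and 0.63 (adjusted p = 0.273 and 0.301), and of 0.34 and 0.92 after that correction. The 14 lysosomal membrane proteins had a median of 0.10, with 4 above (Lamp1, Cd63, Laptm4b and Clcn7) and 2 below both controls (Lamp2 and Ostm1). Their largest log2 changes were -0.67 for Ostm1, -0.44 for Lamp2, which became 0.04 after the correction, and 0.38 for the chloride transporter Clcn7. Of the proton pump that acidifies the lysosome, 15 subunits were tested with a median of 0.09 (-0.14 under quantile normalization), 3 above (Atp6v1f, Atp6v1g1 and Atp6ap1) and 4 below both controls (Atp6v0a2, Atp6v1a, Atp6v1d and Atp6ap2). The log2 change was -0.92 for Atp6v1a (unadjusted p = 0.0146, adjusted p = 0.179) and -0.68 for Atp6v1d, and Atp6v1h was 41.5 RPKM in parental and 90.9 in vector control cells against 47.1 in exon3 KO and 21.8 in exon2 KO cells (-0.91). After the correction Atp6v1d was at -0.43 and Atp6v1h at -0.44.

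The sugar and lipid hydrolases, with their activators, are the other soluble enzymes of the lysosome. All 36 were tested, with a median log2 change of 0.32 (0.22 after the correction for GC content and length). Both knockouts were above both controls in 16 (44.4%, beside 21.9% of all tested genes) and below in 4 (Aga, Asah1, Galc and Acp2), beside 31.2%. Hexa, a hexosaminidase subunit, was 262 RPKM in parental cells, 158 in vector control cells, 411 in exon3 KO cells and 462 in exon2 KO cells (log2 change 1.09, adjusted p = 0.140). Glb1, the beta-galactosidase that Ctsa protects, was 83.0, 36.1, 98.8 and 125 RPKM in the same order of libraries (log2 change 1.01, adjusted p = 0.205), the order also seen in Ctsa. The third partner of the Ctsa complex, the neuraminidase Neu1, was looked up after its values were seen and was 41.2, 40.2, 95.3 and 48.1 RPKM (log2 change 0.72, adjusted p = 0.291, and 0.38 after the correction), highest in the exon 3 knockout and not in the exon 2 knockout. The vector control was the lowest library for 21 of the 36, beside 18.1% of all tested genes.

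Of the transcription factors and nutrient sensors that control lysosomal genes, 11 were tested with a median log2 change of -0.06 (0.05 under median ratio scaling). Of these, 1 was above and 3 were below both controls (Mitf, Fnip1 and Rragc), beside 21.9% and 31.2% of all tested genes. The gene above was Tfeb, at 7.08 RPKM in parental cells, 6.63 in vector control cells, 10.1 in exon3 KO cells and 8.07 in exon2 KO cells (log2 change 0.35, adjusted p = 0.571, and 0.05 after the correction for GC content and length). Fnip1, a partner of folliculin, was 12.5 RPKM in parental and 16.7 in vector control cells, and 4.52 in exon3 KO and 6.96 in exon2 KO cells (log2 change -1.22, unadjusted p = 0.00464, adjusted p = 0.137), with -0.53 after the correction for GC content and length. Mitf had a log2 change of -0.81 and Rragd, a Rag GTPase, of 0.59, both at a few RPKM.

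**Figure D3:**
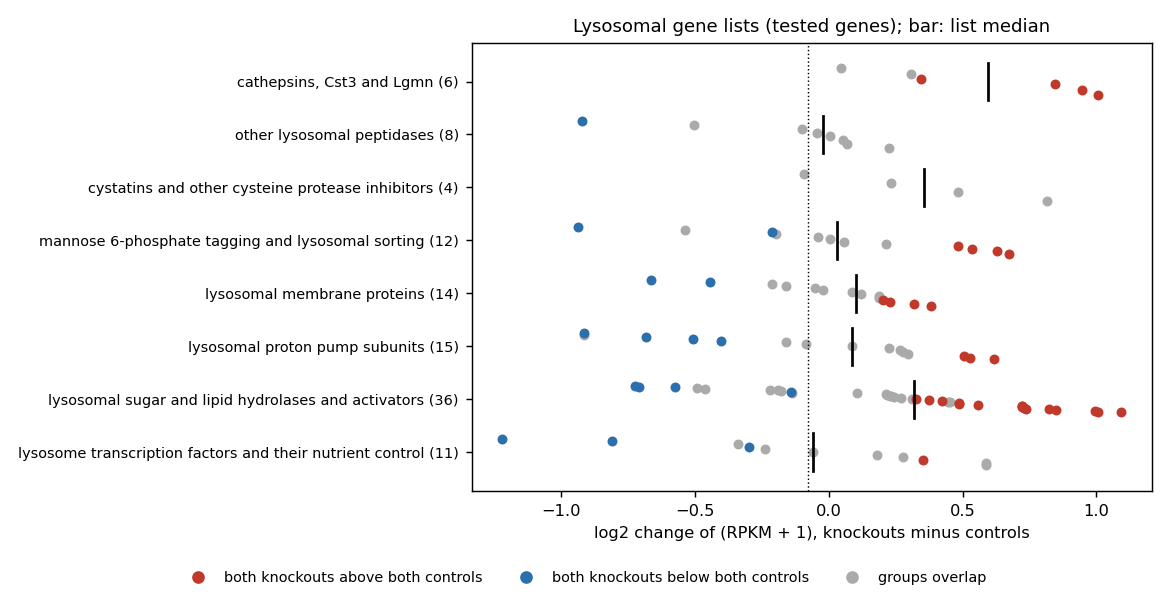
Log2 change of (RPKM + 1), knockouts minus controls, for each tested gene of the 9 named genes and 7 lists of lysosomal genes, with the number tested in parentheses, the list median as a bar and the median of all tested genes (-0.08) as a dotted line. Red and blue points are genes whose knockouts were both above or both below the controls, and the hydrolases and the named genes have the highest share of red points, 44.4% and 66.7%.

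Cathepsins are abundant in macrophages and osteoclasts, so markers of these cells were read beside them. Of 16 macrophage and other leukocyte genes, 3 were tested and the summed level was 16.7 RPKM in parental cells, 44.0 in vector control cells, 38.1 in exon3 KO cells and 22.5 in exon2 KO cells. The defining genes Adgre1, Tyrobp and C1qa were listed at 0 in all 4 libraries and Ptprc had 1 read in the vector control. Cd68, a lysosomal membrane protein also made outside macrophages, was 4.92, 3.36, 11.5 and 13.2 RPKM in the same order. Cd14 was 9.42, 34.5, 8.74 and 7.15 RPKM, lower in both knockouts than in both controls, and Cd74 was 2.02, 5.16, 16.7 and 1.01. Of 7 osteoclast genes, 3 were tested and the sum was 25.4, 11.1, 26.5 and 17.5 RPKM in that order. Acp5, an acid phosphatase, was 12.2 RPKM in parental cells, 2.72 in vector control cells, 14.1 in exon3 KO cells and 8.05 in exon2 KO cells. Nfatc1 was 10.2, 6.30, 10.2 and 8.27 RPKM in the same order. Tnfrsf11a was 2.92, 1.95, 2.11 and 1.16 RPKM, lowest in exon2 KO cells and not in the vector control. Oscar was listed at 0, and Calcr, Dcstamp and Ocstamp were near 0. The 4 T cell genes were at 0 in all libraries, and the 5 endothelial genes summed to between 0.186 and 0.443 RPKM. Mesenchymal genes, with 9 of 11 tested, summed to 5857 RPKM in the parental line and to between 2969 and 3208 in the other 3 libraries. Epithelial genes, with 3 of 12 tested, summed to 134 RPKM in parental cells, 38.1 in vector control cells, 110 in exon3 KO cells and 76.8 in exon2 KO cells, most of it Krt8 and Krt18. The osteoclast and epithelial sums were thus lowest in vector control cells, as the 6 abundant genes were, and their part in the cathepsin values was not tested.

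For the 3 members with the widest range over the libraries, the genes nearest in profile were found by the Euclidean distance between log2(RPKM + 1) values centred on their mean over 4 libraries. Nearest to Ctsd were Mfsd10 (distance 0.084), Arhgef4 (0.118) and Trpv4 (0.158). Mfsd10 was 51.4 RPKM in parental cells, 29.96 in vector control cells, 65.8 in exon3 KO cells and 99.1 in exon2 KO cells. Nearest to Cst3 were Oplah (0.082), Slc9a3r2 (0.196) and Pgpep1l (0.197), and nearest to Ctsa were Abhd14a (0.048), Taf8 (0.067) and Fez2 (0.107). The distances rest on 4 libraries and describe these alone.

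**Figure D4:**
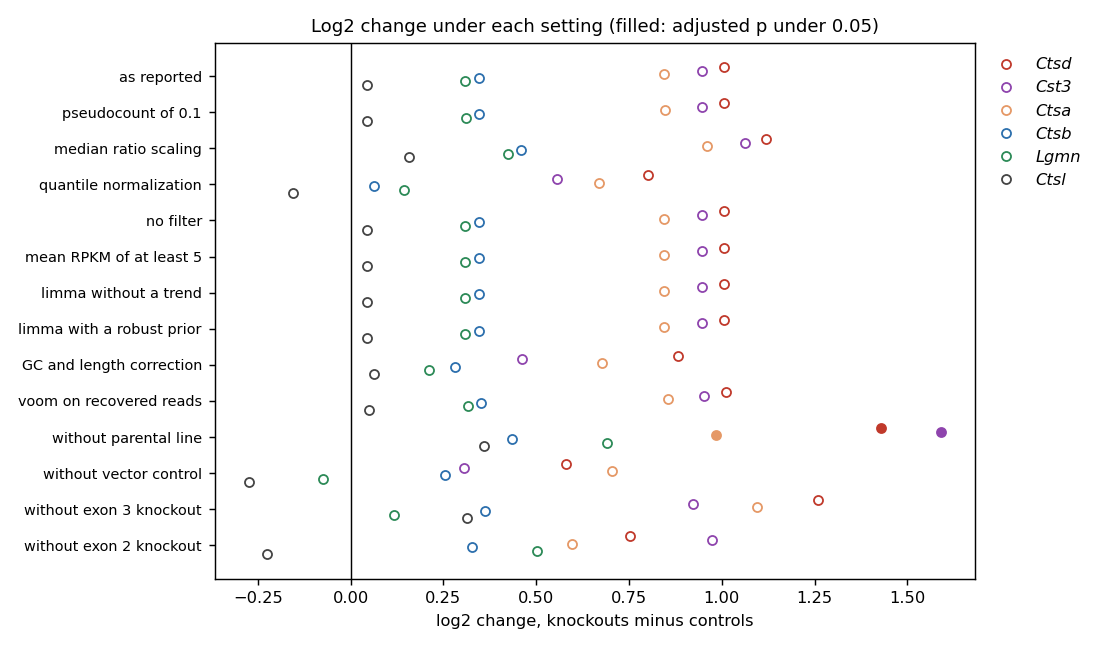
Log2 change of the 6 tested genes, knockouts minus controls, as reported and under 13 other settings, with filled points where the adjusted p was under 0.05. Ctsd, Cst3, Ctsa and Ctsb stay above 0 in each setting, Ctsl crosses 0 in 3 and Lgmn in 1, and only the fit without the parental line has filled points, for Cst3, Ctsd and Ctsa.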

How the data were processed

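RNA-seq was done on 4 mouse mammary tumor cell lines, 1 library each. The authors deposited RPKM values per gene, 1 column per library, with no log scale. All columns matched a sample title (0 unmatched), and the table holds no comparison columns. The submitters' processing notes name CASAVA 1.8, GSNAP and GRCm38; the counting rule and use of strand are not given in the sources used here.

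RPKM steps came out as whole reads for 100% of the 15405 genes above 0 (tolerance 0.001 reads), with totals of 22472024 to 31235456 per library. Gene lengths behind the values equalled an annotated GENCODE M21 coding length for 55.5% of tested genes. For Lgmn the length was 1452 bases against 1308 annotated, so its level is relative to that length. Values were analysed as log2(RPKM + 1), which understates changes of low genes. Genes with mean RPKM of at least 1 (10871) were tested with limma 3.58.1 (R 4.3.3, intensity trend), knockouts against controls, with Benjamini-Hochberg adjustment at 0.05. Pairs of single libraries were described with a 2-fold threshold and no test. The fit was tested on simulated data. Python 3.11.15, numpy 2.4.6, pandas 2.3.3 and scipy 1.17.1 were used.

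Named genes were the 9 members, S100a4, and any called gene and up to 3 with the largest absolute change of each list other than the cell type markers. The 3 nearest profiles of the 3 members with the widest range were named too. Outside this rule, Tfeb, Neu1, Ctla2b and genes named only as parts of counts were chosen after their values were seen. Cell type markers were also outside this rule and only part of them are named, some to check the label. A gene this rule selects is left out by name and counted only within its list. Members and lists were chosen with earlier results of these data known. Alternatives were a pseudocount of 0.1, median ratio scaling, quantile normalization, other filters, limma with no trend, limma with a robust prior, correction for coding GC content and length, voom on recovered reads, a 3-fold threshold and leaving out each library.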

Additional observations from a re-analysis of the deposited data

How the results depend on the processing

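Of 78 alternative values of the 6 log2 changes, 71 kept their direction and side of the threshold, 4 reversed and 3 passed the threshold. Reversed were Ctsl at -0.15 under quantile normalization, -0.27 without the vector control and -0.23 without the exon 2 knockout, and Lgmn at -0.074 without the vector control (leave-one-out ranges -0.27 to 0.36 for Ctsl and -0.074 to 0.69 for Lgmn), all smaller than their SE; the 3 that passed were Cst3, Ctsd and Ctsa without the parental line. Over the 9 alternatives with all libraries, adjusted p ran from 0.174 to 0.671 for Cst3, from 0.0886 to 0.410 for Ctsd and from 0.132 to 0.381 for Ctsa. The ratio of Cst3 between the exon 2 and exon 3 knockouts reversed to 0.22 under quantile normalization and 0.20 after the GC and length correction, and 0 members were 3-fold apart between the control lines, against 1 at 2-fold. Calls over all genes numbered 2 as reported (2076 at an unadjusted p under 0.05), 1 with a pseudocount of 0.1, 1 under quantile normalization, 0 under median ratio scaling (2176), 0 with no filter (2132), 0 by voom (2035), 8 after the GC and length correction, 32 with mean RPKM of at least 5 and 285 with a robust prior. Leaving out a library gave 3 to 788 calls (788 without the parental line, 451 without the vector control, 4 without the exon 3 knockout) and 0 to 3 called members; the cause was not tested. Median ratio scaling moved the median log2 change of all genes from -0.08 to 0.02 and quantile normalization to 0.04, so changes are read relative to these. No paired analysis was possible because the labels give no replicate numbers. Depth limits Ctss, Ctsk and Ctsz, with 1 to 21 reads per library.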

Other observations

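Ctla2a and Ctla2b, both of which resemble the propeptide of cysteine cathepsins, had the widest spread of the protease inhibitors read here. Ctla2a was 177 RPKM in parental and 0.476 in vector control cells, and Ctla2b was 7.45 and 0.113, while exon3 KO and exon2 KO cells held 28.7 and 11.2 RPKM of Ctla2a and 1.84 and 1.92 of Ctla2b. Both were thus high in 1 control line and nearly off in the other, with the knockouts between. The genes are similar in sequence, and how reads shared between such genes were counted is not given in the sources used here, so both levels are uncertain. Col1a1, a main fibrillar collagen chain, was 670 RPKM in parental cells, 6.93 in vector control cells, 54.3 in exon3 KO cells and 24.2 in exon2 KO cells, the same order of libraries as Ctla2a. Ctla2b and the comparison with Col1a1 were picked after their values were seen, and no test was made.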
